A study of Mus musculus with 12 samples.

Results

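The 8 genes described here were the lipoprotein lipases Lpl, Lipc and Lipg, the lipase inhibitors Angptl4 and Angptl8, the lipoprotein receptors Scarb1 and Vldlr, and the transcription factor gene Creb3l3. They were chosen by mouse symbol from the 26748 gene identifiers of the expression table, as genes that bear on the raised plasma triglyceride that bexarotene is known to cause. RNA was measured in hepatocytes of male C57BL/6 mice in 4 groups of 3 libraries. Floxed mice, which keep RXR alpha, were set beside hepatic RXRα knockout mice, and each genotype had a control group and a group given 100 mg/kg/d bexarotene once daily over 5 days. The Cre driver, any treatment of the controls and the age of the mice were not given in the sources used here. All values are TPM (a level scaled for transcript length and library total), and libraries are named by the numbers of the deposited columns.

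Triglyceride in the blood travels in chylomicrons and very-low-density lipoprotein (VLDL). Lipoprotein lipase, made mostly by muscle and fat, clears it at the capillary wall, while hepatic lipase and endothelial lipase act mainly on remnants and on high-density lipoprotein (HDL). ANGPTL4, induced by fasting, and ANGPTL8, induced by feeding, restrain lipoprotein lipase, and scavenger receptor BI and the VLDL receptor take up lipid from lipoproteins. Bexarotene is an agonist of the retinoid X receptors (RXRs), which pair with other nuclear receptors such as PPARA and the liver X receptors (LXRs), and RXR alpha, encoded by Rxra, is the main form in hepatocytes.

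Rxra lay between 79.5 and 86.0 TPM in the 6 floxed libraries and between 26.1 and 33.1 TPM in the 6 knockout libraries, with no overlap. All 12 hepatocyte markers were at or above 1 TPM in every library. Within groups, 4 of 12 library pairs differed by less than 0.1 on the log2 scale beyond counting noise (0.0382 to 0.0725), against 0.152 to 0.435 in the other 8. These were floxed controls 1 and 3, and all 3 treated knockout libraries. They were averaged and counted as 1 sample each, which left 9 samples: 2 floxed controls, 3 treated floxed, 3 knockout controls and 1 treated knockout sample. Means and SDs below are over these samples, the treated knockout group has no SD, and its tests assume that it varies like the other groups. No label says whether each sample was its own animal; the p-values therefore cover sample-to-sample spread that may be technical only. Evening minus morning clock gene level, as a mean log2 difference, was -0.95 to -1.50 in the floxed control group and 1.20 to 1.96 with bexarotene. It was 1.21, 1.11 and -1.96 in knockout controls 1, 2 and 5 and 0.622 to 0.700 in treated knockout libraries. Bexarotene and this clock difference cannot be told apart in floxed mice.

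Of the 8 genes, 7 passed the filter of at least 1 TPM in at least 3 libraries, and 4 of these changed with bexarotene in floxed mice: Lipg, Scarb1 and Creb3l3 rose and Lpl fell. A gene was called at an adjusted p under 0.05 over all 11018 tested genes (limma), and 2.12% of all tested genes were called in this comparison (1.84% higher and 0.281% lower). Libraries of the treated and control floxed groups did not overlap for 6 of the 8 genes, against 35.3% of all tested genes. In the knockout, 0 of the 7 were called for bexarotene, against 0.517% of all genes, and 2 had an unadjusted p under 0.05. The median log2 change of the 7 was 0.69 in floxed mice and 0.41 in the knockout, against 0.06 and 0.10 over all genes tested. Marker sums moved with bexarotene too. The 12 hepatocyte markers summed to 89192 to 100370 TPM in floxed controls and 78399 to 84417 TPM in treated floxed libraries, and to 98187 to 116906 TPM in knockout controls and 90746 to 94306 TPM in treated knockout libraries. The 8 cholangiocyte (bile duct cell) markers, with at most 2 of them at 1 TPM in a library, summed to 2.69 to 5.09 TPM in floxed controls and 11.3 to 15.3 TPM after treatment, and to 1.26 to 2.05 TPM and 4.72 to 5.09 TPM in the knockout. Their part in the results was not tested. In these bulk samples, fewer cells of a type and less RNA per cell cannot be told apart.

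**Figure D1:**
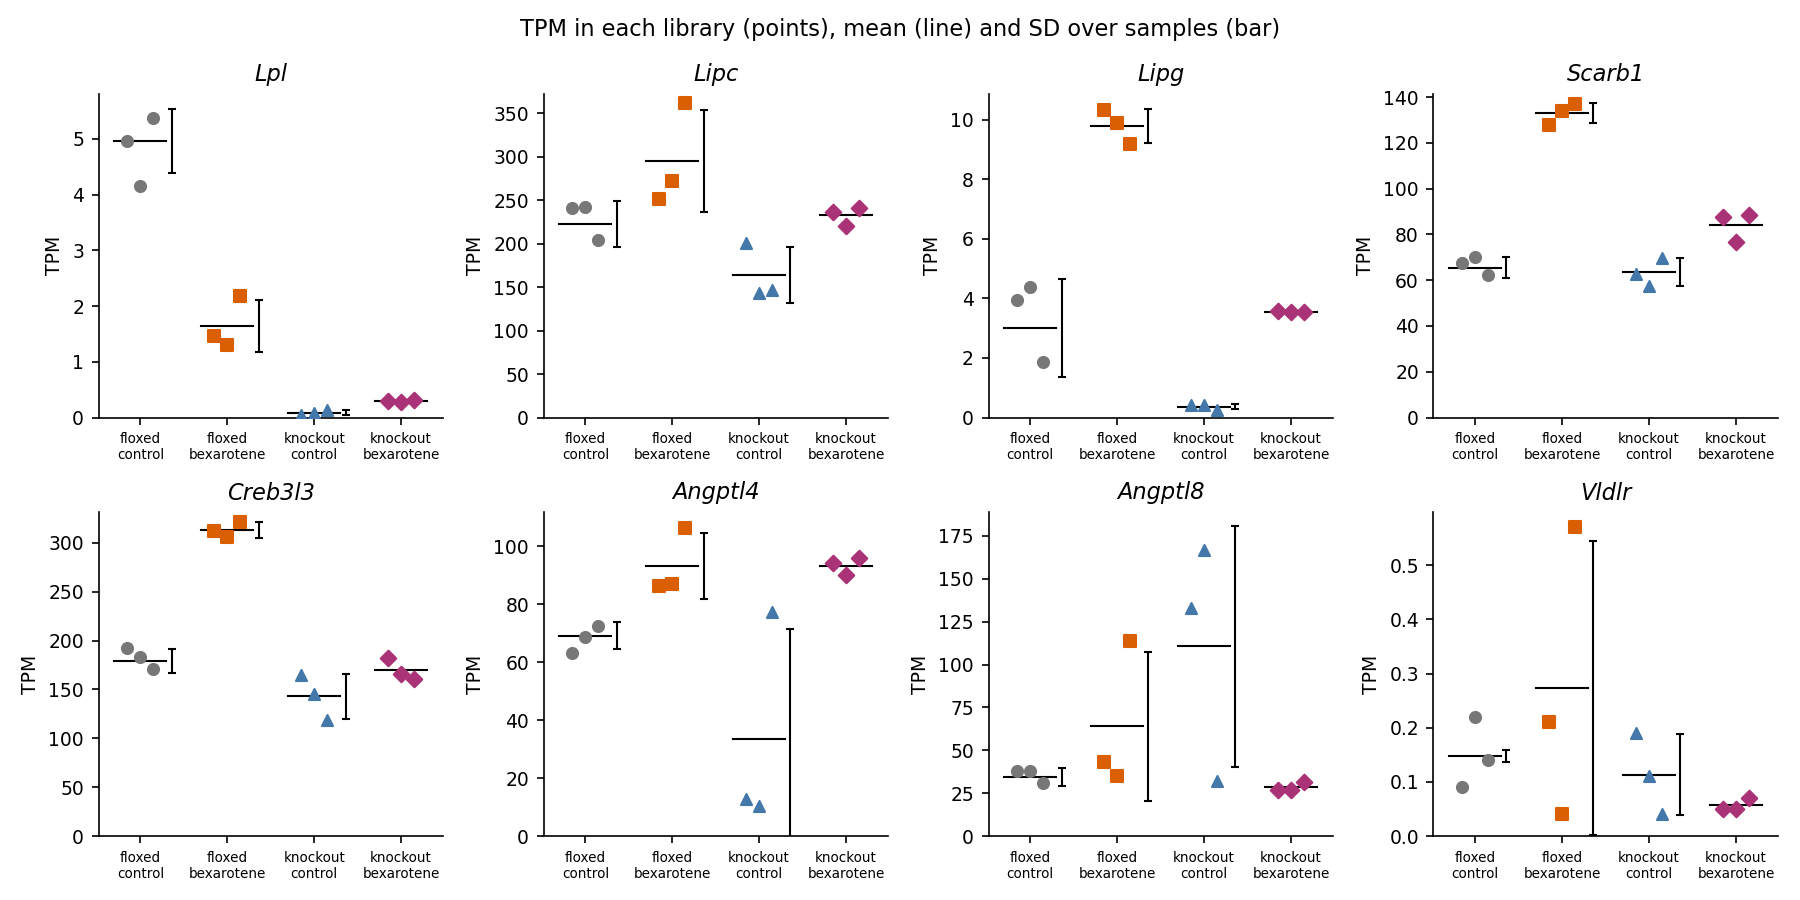
Levels of the 8 genes in TPM (vertical axes, each starting at 0) in the 12 libraries of the 4 groups; points are libraries and lines with bars are the mean and SD over the samples of the fit, cut off at 0, with no SD for treated knockout mice. Lpl is highest in floxed controls (4.16 to 5.37 TPM), Lipg, Scarb1 and Creb3l3 are highest in treated floxed mice, and Angptl4 and Angptl8 are spread most widely in knockout controls.

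Lpl, which encodes lipoprotein lipase, was low in these hepatocytes and was lowest in the knockout. It stood at 4.96, 4.16 and 5.37 TPM in floxed controls 1, 3 and 4 and at 1.46, 1.30 and 2.18 TPM in treated floxed libraries 1, 3 and 4. All treated floxed libraries lay below all floxed controls. Bexarotene lowered Lpl to 33.2% of the control level in floxed mice (log2 change -1.18 ± 0.19 SE on the log2(TPM + 1) scale used for every change here, adjusted p = 0.0208). This call rested on few samples: the change was -1.32 to -1.08 when samples were left out in turn, and the call was lost without floxed controls 1 and 3, floxed control 4, or treated floxed library 1 or 3 (adjusted p up to 0.225). It was also lost with a pseudocount of 0.1 (adjusted p = 0.108) and without the filter on low genes (adjusted p = 0.0627).

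In knockout controls 1, 2 and 5, Lpl was at 0.05, 0.08 and 0.13 TPM, a mean of 1.75% of the floxed control level. The log2 difference from floxed controls was -2.45 ± 0.19 (adjusted p = 3.99e-04). Every knockout library was below 1 TPM, so Lpl passed the filter through its floxed libraries alone. At such knockout levels it could be tested only with higher floxed libraries, so nothing is read from the call between controls. Treated knockout libraries 1, 2 and 3 held 0.29, 0.28 and 0.32 TPM, above every knockout control and below every treated floxed library. The change with bexarotene in the knockout was 0.26 ± 0.24 (adjusted p = 0.859), the difference between the genotypes' responses was 1.44 ± 0.31 (adjusted p = 0.183), and the difference from treated floxed mice was -1.02 ± 0.24 (adjusted p = 0.0907). With all 12 libraries as separate samples, the last 2 were called (1.40 ± 0.21, adjusted p = 0.00391, and adjusted p = 8.33e-04). The near-identical libraries then count as separate samples, so p-values from this setting, here and below, can overstate the evidence. Knockout Lpl also had almost no room to fall, so nothing is read from these 2 Lpl calls.

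Lpl is also made by macrophages, fat and muscle. The summed level of 12 macrophage markers, of which 5 to 11 were at 1 TPM or more in a library, was 28.8, 32.7 and 99.2 TPM in floxed controls 1, 3 and 4 and 20.5, 24.2 and 73.7 TPM in treated floxed libraries 1, 3 and 4. It was 16.6, 17.99 and 38.3 TPM in knockout controls 1, 2 and 5 and 76.0, 73.1 and 83.2 TPM in treated knockout libraries 1, 2 and 3. In each group the library with the highest macrophage sum also had the highest Lpl, while across groups the treated knockout libraries had higher sums than floxed controls 1 and 3 and lower Lpl. The 6 fat and muscle markers in the table, with 0 of them at 1 TPM in any library, summed to 0.53 to 0.81 TPM in floxed controls, 0.1 to 0.76 TPM in treated floxed, 0 to 0.05 TPM in knockout controls and 0 to 0.83 TPM in treated knockout libraries. The part of the macrophage, fat and muscle markers in the result was not tested. Knockout control 5, whose clock difference of -1.96 lay on the side of the floxed controls, held 0.13 TPM of Lpl.

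Lipc, which encodes hepatic lipase, was the most abundant of the lipases and did not pass the test in any comparison. It stood at 242, 242 and 204 TPM in floxed controls 1, 3 and 4 and at 251, 272 and 362 TPM in treated floxed libraries. In the knockout it stood at 201, 144 and 147 TPM in controls 1, 2 and 5 and at 237, 221 and 241 TPM in treated libraries. Treated libraries lay above controls within each genotype, and knockout controls lay below floxed controls. The log2 change with bexarotene was 0.39 ± 0.21 in floxed mice (adjusted p = 0.421) and 0.52 ± 0.26 in the knockout (adjusted p = 0.622), and the knockout controls differed from floxed controls by -0.46 ± 0.21 (adjusted p = 0.313).

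Lipg, which encodes endothelial lipase, rose with bexarotene in floxed mice and was lower in knockout controls. Floxed controls 1, 3 and 4 held 3.95, 4.37 and 1.85 TPM, and treated floxed libraries 10.3, 9.88 and 9.18 TPM. The treated mean was 3.26 times the control mean (1.49 ± 0.24, adjusted p = 0.0204), and the groups did not overlap. Leaving out samples gave changes of 1.06 to 1.92, and the call was lost without floxed control 4 (adjusted p = 0.115) or without any 1 treated floxed library, and without the filter on low genes (adjusted p = 0.0829).

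Knockout controls 1, 2 and 5 held 0.42, 0.41 and 0.26 TPM of Lipg, a mean 8.27-fold below floxed controls (log2 difference -1.49 ± 0.24, adjusted p = 0.0142). This call was lost without floxed controls 1 and 3 (adjusted p = 0.0716), without the filter (adjusted p = 0.0667) and with only the 2 compared groups in the fit (adjusted p = 0.0753). Treated knockout libraries held 3.59, 3.54 and 3.53 TPM, within the range of floxed controls and 9.78 times the knockout control mean. That change of 1.74 ± 0.30 had an adjusted p of 0.0657, and 3.15e-04 with 12 separate libraries; it was called without either floxed control sample (adjusted p = 0.0231 and 0.0215). The responses of the 2 genotypes differed by 0.25 ± 0.39 (adjusted p = 0.881), and the treated groups by -1.24 ± 0.30 (adjusted p = 0.0981). Across the alternatives other than leaving out samples, the difference between the responses ran from -0.23 to 1.22. The pseudocount understates changes at levels as low as those of the knockout controls. Endothelial cells also make Lipg: 12 endothelial markers summed to 14.6 to 21.8 TPM in floxed controls, 10.3 to 18.5 TPM in treated floxed, 13.7 to 21.2 TPM in knockout controls and 19.99 to 21.2 TPM in treated knockout libraries.

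Angptl4, the fasting-induced inhibitor of lipoprotein lipase and a PPARA target, passed the test in none of the 5 comparisons, and its knockout controls disagreed with each other. Floxed controls 1, 3 and 4 held 63.3, 68.5 and 72.4 TPM, treated floxed libraries 86.4, 86.9 and 106 TPM, and treated knockout libraries 94.1, 90.0 and 95.9 TPM. Knockout controls 1 and 2 held 12.9 and 10.5 TPM, but knockout control 5 held 77.4 TPM. All treated libraries lay above all controls of their genotype. The log2 change was 0.42 ± 0.70 in floxed mice (adjusted p = 0.833) and 2.02 ± 0.88 in the knockout (adjusted p = 0.548). Without knockout control 5, the knockout change was 2.90 ± 0.19 (adjusted p = 0.00144), the difference of knockout from floxed controls was -2.47 ± 0.16 (adjusted p = 3.85e-04), and the responses differed by 2.48 ± 0.24 (adjusted p = 0.00619). With 12 separate libraries the knockout change was also called (adjusted p = 0.0372). The spread shared by all groups in the main fit includes knockout control 5. With only the floxed groups in the fit, the floxed change was 0.42 ± 0.12 (adjusted p = 0.113), still not called.

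Angptl8, the feeding-induced inhibitor, ran the other way in knockout controls. Knockout controls 1 and 2 held 133 and 167 TPM, while knockout control 5 held 32.0 TPM, and treated knockout libraries held 26.7, 27.0 and 31.8 TPM. Floxed controls held 38.2, 37.9 and 30.7 TPM, and treated floxed libraries 43.5, 34.9 and 114 TPM, so that treated floxed library 4 alone set the higher mean. The log2 change was 0.69 ± 0.71 in floxed mice (adjusted p = 0.709) and -1.62 ± 0.90 in the knockout (adjusted p = 0.676), and the responses differed by -2.31 ± 1.15 (adjusted p = 0.594). Without knockout control 5, the knockout change was -2.35 (adjusted p = 0.129), and knockout controls stood 2.09 above floxed controls (adjusted p = 0.0545). Angptl8 lies within Dock6 on the opposite strand; Dock6 reached at most 4.57 TPM, and whether counting used strand is not stated.

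Knockout control 5 stood apart from knockout controls 1 and 2 in other genes that follow feeding, chosen here after their values were seen. Igfbp1, a liver gene repressed by insulin, was at 51.7 and 64.7 TPM in knockout controls 1 and 2, at 939 TPM in knockout control 5 and at 896 to 921 TPM in treated knockout libraries. Pck1, which encodes a gluconeogenic enzyme repressed by insulin, was at 671 and 662 TPM in knockout controls 1 and 2, at 1531 TPM in knockout control 5 and at 1634 to 1644 TPM in treated knockout libraries. For Angptl4, Angptl8, Igfbp1 and Pck1 alike, knockout control 5 lay nearer to the treated knockout libraries than to its own group. The part of these differences, and of the clock difference, in the Angptl4 and Angptl8 values was not tested.

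**Figure D2:**
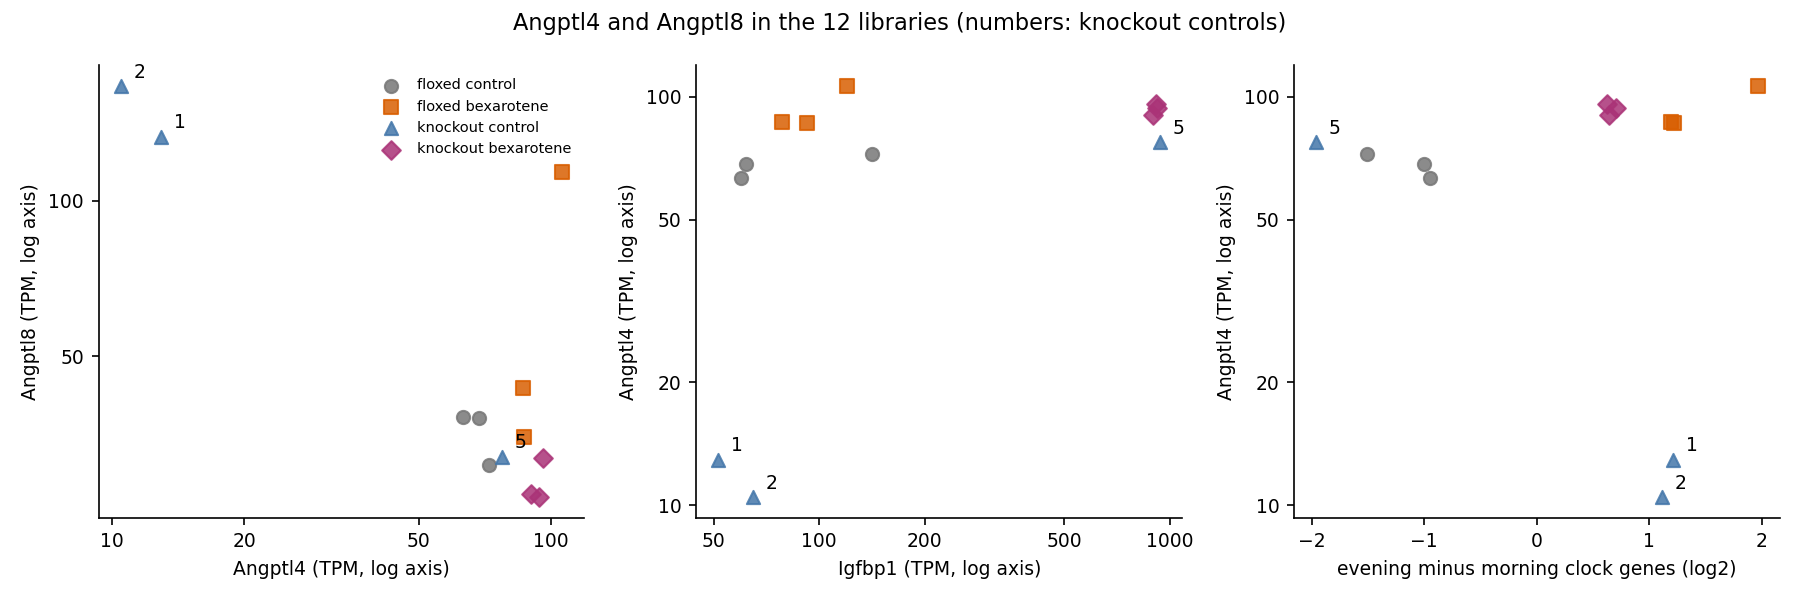
Angptl8 against Angptl4, Angptl4 against Igfbp1 (TPM, log axes) and Angptl4 (TPM, log axis) against the evening minus morning clock difference (log2, linear axis) in the 12 libraries; knockout controls carry their numbers. Knockout controls 1 and 2 sit at 10.5 to 12.9 TPM of Angptl4 and 133 to 167 TPM of Angptl8, away from the other 10 libraries, while knockout control 5 sits near the treated knockout libraries in Angptl4 and Igfbp1 but not in the clock difference.

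Scarb1, which encodes scavenger receptor BI, the hepatic receptor for HDL cholesteryl ester, rose with bexarotene in floxed mice. Floxed controls 1, 3 and 4 held 67.4, 70.0 and 62.2 TPM, and treated floxed libraries 128, 134 and 137 TPM. The groups stood well apart, at 65.5 ± 4.57 TPM (SD, n = 2) and 133 ± 4.53 TPM (SD, n = 3), a ratio of 2.03 and a log2 change of 1.01 ± 0.12 (adjusted p = 0.00645). The call was lost without floxed controls 1 and 3 (adjusted p = 0.051) or floxed control 4 (adjusted p = 0.0962). Knockout controls held 62.9, 57.5 and 69.8 TPM, overlapping floxed controls (-0.05 ± 0.12, adjusted p = 0.900). Treated knockout libraries held 87.8, 76.5 and 88.4 TPM, above every knockout control and below every treated floxed library. The knockout change was 0.41 ± 0.16 (adjusted p = 0.456), the treated groups differed by -0.65 ± 0.16 (adjusted p = 0.0908), and the responses by -0.60 ± 0.20 (adjusted p = 0.399). With 12 separate libraries, which counts the near-identical ones apart, all 3 were called (adjusted p = 0.0206, 8.24e-04 and 0.0305).

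Vldlr, which encodes the VLDL receptor, was below 1 TPM in every library and was not tested. It lay at 0.09 to 0.22 TPM in floxed controls, 0.04 to 0.57 TPM in treated floxed, 0.04 to 0.19 TPM in knockout controls and 0.05 to 0.07 TPM in treated knockout libraries, and neighbouring groups in the order of their means overlapped. At such levels and with depth unknown, a difference was not detectable.

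Creb3l3, which encodes a membrane-bound hepatic transcription factor known to raise Apoc2 and Apoa4, rose with bexarotene in floxed mice. Floxed controls 1, 3 and 4 held 192, 184 and 171 TPM and treated floxed libraries 312, 306 and 321 TPM. The treated mean was 313 ± 7.80 TPM (SD, n = 3), 1.75 times the control mean (0.80 ± 0.15, adjusted p = 0.0366). The call was lost when any 1 floxed sample or knockout control 2 was left out (adjusted p up to 0.323), with samples scaled to the same median (adjusted p = 0.105) and without the filter (adjusted p = 0.0937). Knockout controls held 165, 145 and 119 TPM, below every floxed control (-0.34 ± 0.15, adjusted p = 0.301). Treated knockout libraries held 182, 166 and 161 TPM, which overlapped both control groups (0.26 ± 0.19 against knockout controls, adjusted p = 0.788). They lay below every treated floxed library (-0.88 ± 0.19, adjusted p = 0.0638, or 3.33e-04 with 12 separate libraries), and the responses differed by -0.54 ± 0.24 (adjusted p = 0.542).

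**Figure D3:**
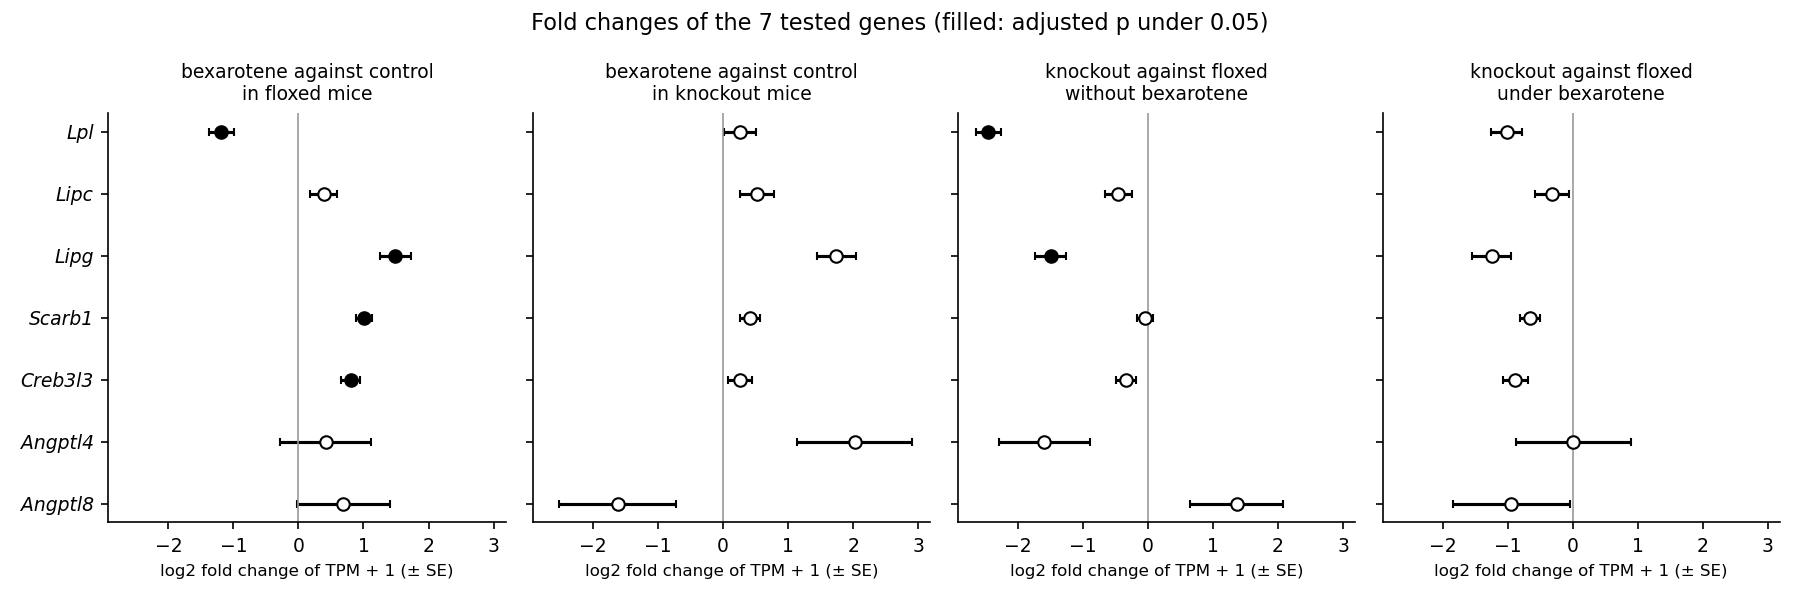
Log2 changes of the 7 tested genes (horizontal axis, log2(TPM + 1) scale) in 4 comparisons, with bars of 1 SE and filled points for adjusted p under 0.05. The 4 filled points for bexarotene in floxed mice are Lpl (-1.18), Lipg (1.49), Scarb1 (1.01) and Creb3l3 (0.80), and the 2 for knockout against floxed controls are Lpl (-2.45) and Lipg (-1.49). Lpl passed the filter through its floxed libraries alone, so nothing is read from its point between controls.

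Without bexarotene, Lpl and Lipg were called lower in the knockout, and 3.76% of all tested genes were called (1.83% higher and 1.92% lower). Lpl was below 1 TPM in all 6 knockout libraries and passed the filter through the floxed groups alone, so nothing is read from its call or from the count that holds it. Knockout and floxed control libraries did not overlap for 4 of the 8 genes, Lpl, Lipc, Lipg and Creb3l3, all lower in the knockout. The share over all genes was 25.3%, and nothing is read from the place of Lpl among them. Under bexarotene, 0 of 7 were called against 1.93% of all genes (0.681% higher and 1.25% lower), with 4 at an unadjusted p under 0.05, and libraries did not overlap for 6 of 8 against 42.4% of all genes. For the difference between the responses, 0 of 7 were called against 0.200% of all genes, with 2 at an unadjusted p under 0.05. In the knockout, treated and control libraries did not overlap for 6 of 8 genes, against 28.5% of all genes. Overlap counts and shares take the near-identical libraries apart, and the shares cover tested genes only, which leaves out Vldlr. Lpl is among the genes of each overlap and unadjusted count in this paragraph, and nothing is read from its place. The comparisons share control samples and are not independent of each other.

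The order of the 4 groups differed between genes. For Lpl it was floxed control, treated floxed, treated knockout and knockout control, with no overlap between neighbours. For Lipg, treated floxed mice stood first and knockout controls last, and treated knockout and floxed control libraries overlapped between them. For Scarb1, treated floxed stood above treated knockout, and both control groups overlapped below. For Creb3l3, treated floxed stood first and the other 3 groups overlapped with their neighbours.

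RXR and its partners bind DNA at copies of a hexamer close to AGGTCA, so the 250 bases before the RefSeq start sites (GRCm38.p6) were searched for AGGTCA and GGGTCA on both strands; the 2 motifs cannot match the same 6 bases. Of the 8 genes, 4 were matched by symbol, and 3 windows with at most 2 bases in exons are shown 5′ to 3′ with any match in capitals: Lipc, the only window with 2 matches, Angptl8, with 1, and Creb3l3, which rose with bexarotene, with 0.
Lipc (chr9:70934809-70935058, minus strand): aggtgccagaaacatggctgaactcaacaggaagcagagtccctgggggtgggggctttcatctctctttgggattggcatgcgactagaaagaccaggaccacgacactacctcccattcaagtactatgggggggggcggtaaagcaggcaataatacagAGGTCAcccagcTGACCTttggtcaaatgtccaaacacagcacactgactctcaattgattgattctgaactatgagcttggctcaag
Angptl8 (chr9:21835260-21835509, plus strand): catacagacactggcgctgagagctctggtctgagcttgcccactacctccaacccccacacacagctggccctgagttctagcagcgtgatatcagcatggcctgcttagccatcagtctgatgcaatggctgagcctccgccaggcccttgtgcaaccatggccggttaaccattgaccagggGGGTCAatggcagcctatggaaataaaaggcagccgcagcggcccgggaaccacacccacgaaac
Creb3l3 (chr10:81098873-81099122, minus strand): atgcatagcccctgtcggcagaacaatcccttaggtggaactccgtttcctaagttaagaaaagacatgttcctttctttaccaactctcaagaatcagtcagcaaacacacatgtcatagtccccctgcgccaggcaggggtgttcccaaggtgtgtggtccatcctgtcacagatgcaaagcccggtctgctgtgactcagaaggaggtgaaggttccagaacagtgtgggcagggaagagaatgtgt
The Lipc window lies in an intron of the longer transcript Lipc-204 and holds AGGTCA at -88 to -83 and, on the other strand, at -76 to -71 from the start site. The Angptl8 window lies in Dock6 outside its exons and holds GGGTCA at -65 to -60. The Creb3l3 window holds neither motif, and 2 of its bases fall in exon 1 of Creb3l3-201. The table holds a second start site for both Lipc and Creb3l3: the other Lipc window, before the start of Lipc-204, held 0 matches, and the other Creb3l3 window, with 101 of its bases in exons, held AGGTCA at -202 to -197. Vldlr, the remaining gene matched, had 2 windows, with 0 and 179 bases in exons. Both held 0 matches and are not shown. Of 32851 mouse windows of this length, 14.0% held AGGTCA, 11.7% held GGGTCA, 23.8% held either and 3.79% held 2 or more matches. A match describes the letters only and shows no binding, and no match says only that these letters are not in the window.

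The list counts that follow stand beside the shares over all tested genes, which for genes called higher with bexarotene were 1.84% in floxed mice and 0.417% in the knockout. Knockout against floxed, the shares called higher and lower were 1.83% and 1.92% between controls, and 0.681% and 1.25% under bexarotene. The responses of the genotypes differed for 0.200%. Of 20 tested cofactors, inhibitors and processing factors, 1 rose with bexarotene in floxed mice and 0 fell (median log2 change 0.09, against 0.06 over all genes). It was Apoc2, which encodes the activating cofactor of lipoprotein lipase, at 259 ± 38.7 TPM (SD, n = 2) in floxed controls and 523 ± 42.0 TPM (SD, n = 3) after treatment (1.02 ± 0.14, adjusted p = 0.0121). In the knockout, 0 of 20 were called, with 2 at an unadjusted p under 0.05 (limma). Apoc2 there was at 267.5 ± 25.07 TPM (SD, n = 3) in controls and 494.8 TPM in the 1 treated sample, so no call does not mean no change. Knockout controls were higher than floxed controls in 2 of 20, Apoc3, an inhibitor of triglyceride clearance (0.85 ± 0.15, adjusted p = 0.019), and Apoh (0.54 ± 0.11, adjusted p = 0.0324), and lower in 0.

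Of 17 other lipoprotein receptors and regulators, 0 changed with bexarotene in floxed mice, with 7 at an unadjusted p under 0.05 (limma), and 0 in the knockout, with 2 at that level. Cd36, which encodes a fatty acid transporter, was the 1 gene lower in knockout controls (-1.72 ± 0.38, adjusted p = 0.0493). Of 15 other lipases and remodelling enzymes, 3 rose in treated floxed mice and 0 fell: Mgll, a monoglyceride lipase (1.07 ± 0.14, adjusted p = 0.0106), Abhd6, another (1.11 ± 0.18, adjusted p = 0.02), and Pnpla2, the adipose triglyceride lipase (0.97 ± 0.20, adjusted p = 0.0487). Under bexarotene 3 were lower in the knockout: Abhd6 (-1.61 ± 0.22), Ces1d, a carboxylesterase that mobilises triglyceride (-1.53 ± 0.22), and Mgll (-0.98 ± 0.18). With bexarotene in the knockout, 0 of these 15 were called, with 4 at an unadjusted p under 0.05. Mean Pnpla2 went from 23.97 to 44.52 TPM there, and from 23.45 to 46.77 TPM in floxed mice. Mgll went from 30.12 to 36.2 TPM in the knockout and from 34.21 to 72.24 TPM in floxed mice. Abhd6 went from 10.85 to 10.74 TPM and from 15.58 to 35.23 TPM.

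Of 15 tested genes reported to be controlled by CREB3L3, 2 rose with bexarotene in floxed mice and 0 fell (median 0.38). They were Apoc2 and Cidec, which encodes a lipid droplet protein (2.49 ± 0.20, adjusted p = 7.62e-04). Cidec was the 1 gene of the list whose response differed between the genotypes (-2.48 ± 0.32, adjusted p = 0.0368). Knockout controls were higher than floxed controls in 3, among them Apoa4, an apolipoprotein of triglyceride-rich particles (3.35 ± 0.34), and lower in Elovl5, a fatty acid elongase (-1.81 ± 0.40). Creb3l3 itself was at 143 TPM in knockout controls and 179 TPM in floxed controls, a difference that was not called (adjusted p = 0.301, limma). The part of Creb3l3 in the Apoa4 level was not tested. Of 15 genes of VLDL assembly and secretion, 2 rose in treated floxed mice and 0 fell: Mttp, which loads triglyceride onto apolipoprotein B (0.80 ± 0.12, adjusted p = 0.0182), and Sar1b, a coat protein gene of secretory vesicles (0.73 ± 0.12, adjusted p = 0.0208). In the knockout, 0 genes of either list were called for bexarotene, with 4 and 2 at an unadjusted p under 0.05. Mean Mttp went from 91.27 to 134.8 TPM there, and from 79.63 to 139.4 TPM in floxed mice. Sar1b went from 221.6 to 284.4 TPM in the knockout and from 174.3 to 289 TPM in floxed mice. Cidec went from 0.42 to 0.41 TPM in the knockout and from 0.62 to 8.11 TPM in floxed mice.

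Target genes of RXR partner receptors were counted in the same way. Of 23 tested PPARA targets, 13 rose and 0 fell in floxed mice (median 1.10), among them Ehhadh, a peroxisomal oxidation enzyme (94.7 ± 7.20 to 1754 ± 94.3 TPM, SD, n = 2 and 3), Slc22a5, a carnitine transporter (5.22 ± 1.18 to 30.6 ± 2.47 TPM), and Acsl1 (192 ± 13.1 to 673 ± 25.1 TPM). In the knockout 5 rose and 0 fell (median 0.61). Without bexarotene, 7 were lower and 0 higher in the knockout (median -0.27), among them Aldh3a2, a fatty aldehyde dehydrogenase gene (-2.78 ± 0.15, adjusted p = 5.77e-05), against 1.92% of all genes called lower. Under bexarotene, 11 were lower and 0 higher (median -1.43), against 1.25% of all genes. Of 9 tested LXR targets, 4 rose and 0 fell in floxed mice (median 1.15), among them the sterol exporter genes Abcg5 (1.66 ± 0.18, adjusted p = 0.00351) and Abcg8 (1.62 ± 0.14, adjusted p = 9.96e-04), and 1 rose in the knockout.

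**Figure D4:**
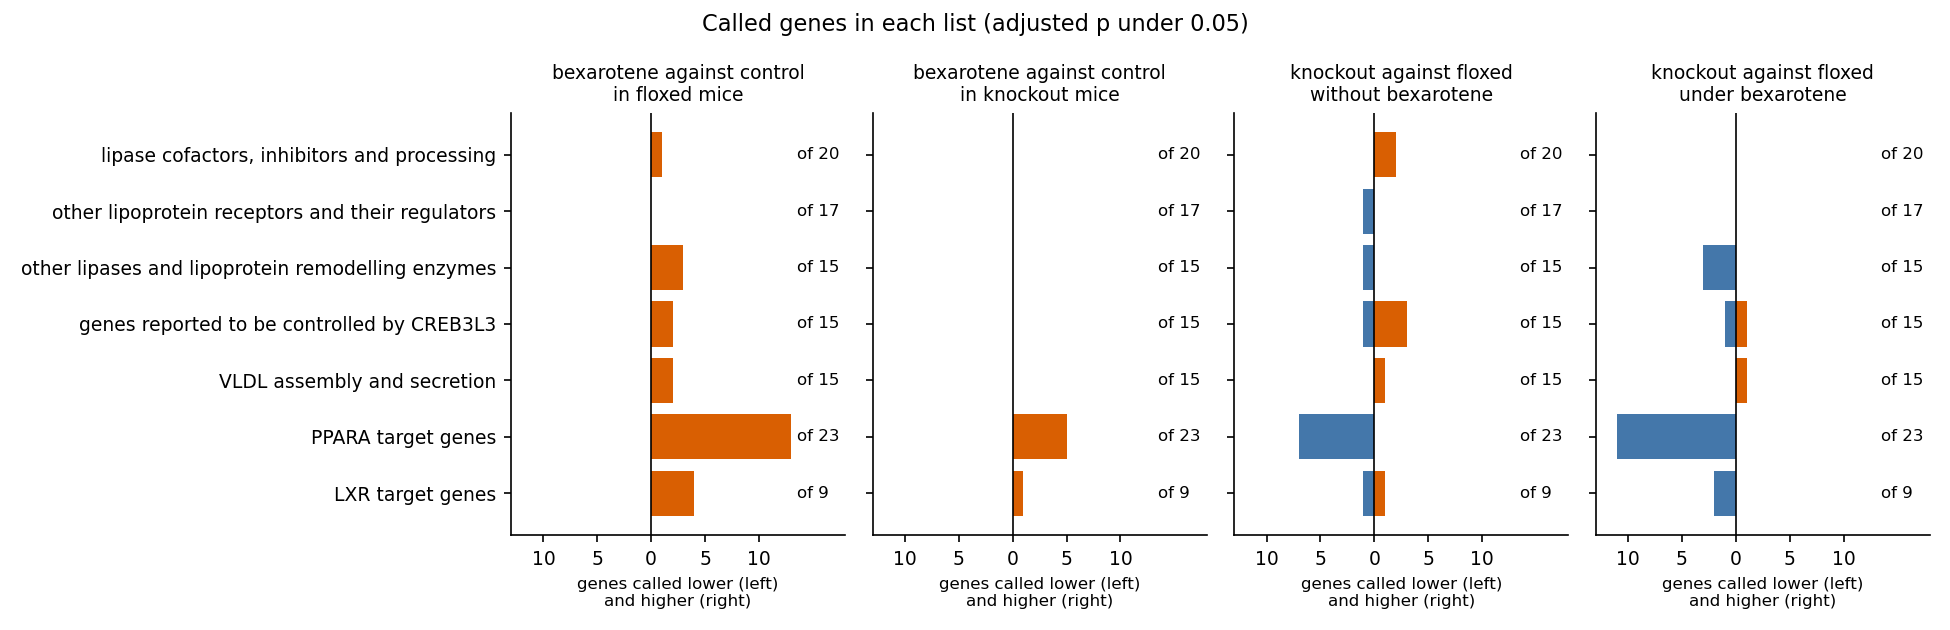
Number of genes called at an adjusted p under 0.05 in each of 7 gene lists (rows) in 4 comparisons; bars to the left count genes called lower, bars to the right genes called higher, and the number of tested genes stands at the right of each row. For bexarotene the PPARA list has 13 genes higher in floxed and 5 in knockout mice, and the receptor list has 0 in each.

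The genes whose levels were most like each of the 7 across the 9 samples are given as a description (Pearson r of log2(TPM + 1); the samples share their groups). For Scarb1 they were the acyl-CoA thioesterase genes Acot3 (0.990) and Acot2 (0.988) and Slc22a5 (0.987), and for Creb3l3 those given are Cyp4a32 (0.991) and Adssl1 (0.984). For Lipg they were Ppl (0.988), the nuclear receptor gene Nr1i2 (0.986) and the phospholipid exporter gene Abcb4 (0.983). Lpl was most like Adck5 (0.968), Cyp2c69 (0.967) and Cyp2c40 (0.963), and Lipc most like Wdr34 (0.963), Rhob (0.957) and Aplp2 (0.950). Angptl4 was most like Igsf11 (0.960), Insig2 (0.954) and Slc38a4 (0.953), and Angptl8 most like Leng9 (0.942), Lbhd1 (0.941) and Iffo2 (0.933). Among the 7 themselves, r was 0.931 for Lipg with Creb3l3, 0.908 for Scarb1 with Creb3l3, 0.890 for Lipg with Scarb1 and -0.745 for Angptl4 with Angptl8.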

How the data were processed

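Hepatocyte RNA of 12 libraries was sequenced. Per the labels' protocols, TRIzol extraction and DNase I digestion preceded stranded mRNA library preparation with Illumina reagents. Per the submitters' processing notes, fastp, HISAT2 and StringTie were used, without versions. The genome build, and whether counting used strand, are not given in the sources used here. Values were deposited as TPM per gene, without read counts, so depth and counting error are unknown. Column numbers did not match the labels' replicate numbers, so columns were assigned to groups only.

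From these values, near-identical libraries (within 0.1 log2) were averaged, a limit chosen with the values known. A linear model of log2(TPM + 1) was fitted to 9 samples and 11018 genes (at least 1 TPM in at least 3 libraries) with limma 3.58.1 in R 4.3.3 (trended variance, Benjamini-Hochberg adjustment over all genes) after tests on simulated data. The pseudocount understates changes of low genes. The 5 comparisons share 1 fit. Named were the 8 genes, Rxra, up to 4 called genes per list and comparison, and the 3 genes most like each tested gene; genes outside this rule are marked, and 1 gene it names is not reported here. The members and lists were chosen with earlier results of these data known. Alternatives were the pseudocount, the filter, 12 separate libraries, quantile or median scaling, fits of the compared groups alone, and leaving out each sample. Promoter sequences came from RefSeq (GRCm38.p6).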

Additional observations from a re-analysis of the deposited data

How the results depend on the processing

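No member's log2 change past the threshold turned its direction under any alternative. Of the 562 recomputed changes, 511 kept their status, called or uncalled, 27 gained a call and 24 lost one. Most changes were uncalled in the main fit. Only a called change can lose its call. The 24 losses fell on the 4 calls for bexarotene in floxed mice and on that of Lipg between controls. Members called for bexarotene in floxed mice numbered 4, and 1 with no filter, 3 with a pseudocount of 0.1, 3 with a filter of 5 TPM (Lpl not tested) and 3 with median scaling. In the knockout they numbered 0, and 1 with a pseudocount of 0.1 (Lipg), 1 with no filter (Lipg) and 3 with 12 libraries. Against floxed controls, knockout controls gave 2, and 1 with no filter, 1 with a filter of 5 TPM (fewer members tested) and 1 with the compared groups alone. Under bexarotene there were 0, and 1 with a pseudocount of 5 (Lipg), 1 with no filter (Scarb1), 4 with 12 libraries, 2 with quantile normalization (Lpl and Creb3l3) and 2 with the compared groups alone (Lipg and Creb3l3). For the difference of responses there were 0, and 2 with 12 libraries. Leaving out a sample gave 0 to 4, 0 to 1, 1 to 3, 0 to 2 and 0 to 1 in these comparisons. Nothing is read from Lpl in the last 3 of them, where all its knockout libraries were below 1 TPM.

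Over all genes, calls in the same order were 234, 57, 414, 213 and 22. With no filter they were 140, 875, 231, 1041 and 689, and with 12 libraries 1062, 1105, 1302, 1589 and 651. The compared groups alone gave 614, 6 and 158 in the first 3. Leaving out a sample gave 43 to 553, 22 to 249, 100 to 761, 103 to 435 and 6 to 210. Except where stated, the cause was not tested. Quantile normalization moved the median change in the knockout by -0.13 and median scaling by -0.12; 80.7% of knockout calls were higher, and 69.8% with quantile normalization. Uncalled Lpl in the knockout was 0.26, and -0.21 with quantile normalization; Lpl between controls was -2.45, and -4.78 with a pseudocount of 0.1.

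No paired analysis was possible because the columns do not carry the labels' replicate numbers, so a replicate block could not be fitted. The lone treated knockout sample could not be left out of comparisons that use it. Depth is unknown, so the precision of low values such as Vldlr and knockout Lpl cannot be stated.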
